A study of Mus musculus with 11 samples.

Results

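A set of 10 transcription factor genes of the homeobox class, out of the 24421 gene entries listed for each sample, were followed across 4 brain regions of the adult mouse. They are the Iroquois genes Irx1, Irx2, Irx3 and Irx5, the Nkx genes Nkx6-1, Nkx6-2 and Nkx2-2, the paired-box gene Pax3 and the engrailed genes En1 and En2. The list was given by name and not by a cut on a measured value, and all 10 genes were matched by symbol. Earlier results of these data were known when it was chosen, so it is not an independent list. RNA came from sorted cells labelled as Aldh1l1-GFP positive astrocytes, from mice 16 weeks old on a C57BL/6 strain, with 3 samples from the olfactory bulb (OB), 3 from the hippocampus (HC), 2 from the cortex (CX) and 3 from the brainstem (BS). All groups carried the same BAC transgene, in which eGFP is driven by the promoter of Aldh1l1, a folate enzyme gene used as an astrocyte marker, and males and females were both used. No treated or mutant group exists in this design, so the regions serve as each other's reference. The labels do not say whether samples came from separate animals, so that the p-values below measure the spread between these samples.

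In the embryo these factors divide the neural tube into domains. Sonic hedgehog from the floor plate turns on Nkx2-2 and the Nkx6 genes in ventral progenitors, Pax3 marks dorsal progenitors, and Iroquois genes are expressed at intermediate levels and repress ventral genes. The engrailed genes are expressed around the midbrain-hindbrain boundary, from which the midbrain and the cerebellum are organised. Nkx2-2 and Nkx6-2 are also known from oligodendrocytes, Nkx2-2 mostly in precursors and Nkx6-2 in maturing cells. The set therefore spans ventral, dorsal and boundary factors, and not ventral ones alone.

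All members carry a homeodomain, whose recognition helix lies in the major groove of DNA. The coding bases around that helix are shown for 8 members because they tell how alike these are, and so how far their reads could be mistaken for one another. Each stretch holds 51 bases of the longest coding transcript in GENCODE (GRCm38), and the 18 capitals are the 6 codons found by searching the translated transcript for the core of the helix.
Irx1: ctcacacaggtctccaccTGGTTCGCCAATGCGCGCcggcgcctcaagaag
Irx2: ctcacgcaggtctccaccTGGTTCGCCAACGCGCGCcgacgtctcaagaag
Irx3: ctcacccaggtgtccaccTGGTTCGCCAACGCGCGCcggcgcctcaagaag
Irx5: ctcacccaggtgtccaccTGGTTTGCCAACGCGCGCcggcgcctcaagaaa
Nkx6-2: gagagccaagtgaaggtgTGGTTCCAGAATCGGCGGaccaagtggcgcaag
Pax3: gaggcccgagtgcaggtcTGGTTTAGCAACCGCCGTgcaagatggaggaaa
En1: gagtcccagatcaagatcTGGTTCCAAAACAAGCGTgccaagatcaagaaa
En2: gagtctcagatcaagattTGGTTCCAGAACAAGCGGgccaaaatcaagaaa

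The 4 Iroquois genes shared between 45 and 49 of the 51 bases in their 6 pairs, and En1 and En2 shared 46. The codon that follows the first pair in capitals, at a position that contributes to the choice of DNA bases, was GCC in all 4 Iroquois genes, AGC in Pax3, CAA in En1 and CAG in En2 and Nkx6-2. The longest run of identical bases anywhere between transcripts of 2 members was 65, between Irx2 and Irx5, which is shorter than the 75 bases of a read. In Nkx6-2 and Pax3 the stretch shown crosses from one coding exon into the next, and in the other 6 it lies in 1 exon.

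Each deposited value is a read count divided by 1 size factor per sample. Reads counted on genes numbered 2830746 in the shallowest library and 14151670 in the deepest, and the BS libraries, with a median of 3098215, had the lowest depth, so that 1 read was worth between 1.05 and 2.10 there and between 0.367 and 1.53 elsewhere. Every member is a low gene at this depth, and intervals or floors computed from reads cover counting error only. Of the 10 astrocyte markers all had reads in each region, with summed values between 97652 and 286916 in the BS and between 234813 and 636700 elsewhere. Slc1a2 was the largest part of these sums (61764 to 208927 in the BS). Slc1a3 had 1953, 6315 and 5142 in the BS and 14218 to 33551 elsewhere. It was the 1 astrocyte marker called in the BS by the limma comparison below, and the other 9 were not called. Reads of Rn45s, a ribosomal RNA entry, made up 18% to 25.6% in the BS and 19.0% to 20.7% in the CX, against 0.966% to 2.93% in the OB and HC. The part that this difference has in the results was not tested.

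Nearly all of the set was detected in brainstem astrocyte samples, and little of it elsewhere. Reads were found for 9 or 10 members in each BS sample, with 9 members over 3 reads in every one of them. The OB samples had reads for between 1 and 3 members, the HC samples for between 3 and 6 and the CX samples for between 2 and 5. In bulk RNA, fewer cells that express a gene and less RNA per cell cannot be told apart. The plot of values by sample shows all 10 genes on 1 scale.

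**Figure D1:**
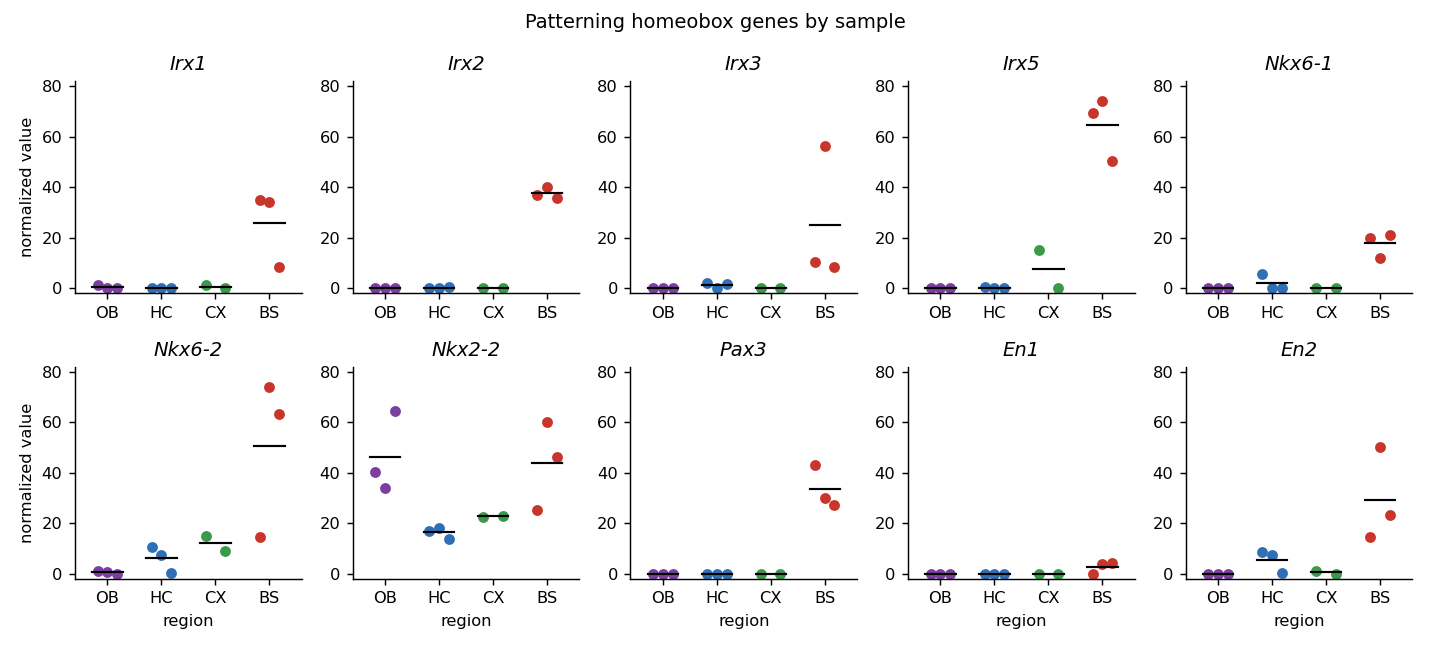
Normalized value (y axis, read count divided by the sample's size factor) of each gene in the 3 OB, 3 HC, 2 CX and 3 BS samples (x axis, region), with 1 point per sample and a line at the region mean. Nkx2-2 is the gene with values in every sample, from 13.9 to 64.6, whereas Pax3 has values in the BS samples alone.

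The Iroquois genes sit in a pair of clusters. Irx1 (chr13:71957921-71963723, minus strand) and Irx2 (chr13:72628820-72634198, plus strand) share chromosome 13, and Irx3 (chr8:91798525-91802067, minus strand) and Irx5 (chr8:92357625-92376286, plus strand) share chromosome 8, all in GRCm38. Irx2, a patterning factor of the hindbrain and other tissues, had values of 36.8, 40.1 and 35.8 in the 3 BS samples, 0.367 in 1 HC sample and 0 in the other 7. The BS samples lay within a narrow band far above a background of 1 read. They rest on 35, 20 and 17 reads, and their 95% counting intervals, from 20.8 at the lowest to 61.9 at the highest, were wider than that band. Irx2 was the member whose BS samples varied least, with a mean of 37.5 ± 2.24 (SD, n = 3).

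Irx1, its neighbour on the chromosome, had values of 34.7, 34.1 and 8.42 in the BS, 1.09 in 1 OB sample, 1.26 in 1 CX sample and 0 in the others. The third BS sample was low but still above all samples of the other regions. Irx5, which in the mouse retina and heart acts in cell differentiation, had 69.4, 74.1 and 50.5 in the BS, 0.625 in 1 HC sample, and 15.1 in 1 CX sample against 0 in the other. The 12 reads behind that CX value made it the highest level of any Iroquois gene outside the BS. Irx3, known for its role in setting the border between ventral interneuron and motor neuron progenitors, had 10.5, 56.1 and 8.42 in the BS, 1.87 and 1.47 in a pair of HC samples and 0 elsewhere. One BS sample was thus far above the other two, and the SD of 26.9 exceeded the mean of 25.

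Of the Nkx genes, 1 was near absent outside the BS, 1 was graded across regions and 1 was found everywhere. Nkx6-1 (chr5:101658139-101664996, minus strand), a ventral progenitor and motor neuron factor, had values of 20.0, 12 and 21.0 in the BS and 5.62 in 1 HC sample, with 0 in the remaining 7 samples. Its lowest BS sample was above its highest sample elsewhere. Nkx6-2 (chr7:139579376-139582797, minus strand) had 14.7, 74.1 and 63.1 in the BS and 15.1 and 9.20 in the CX. In the HC it had 10.6, 7.31 and 0.367, and in the OB 1.09, 0.789 and 0. The lowest BS sample overlapped with the CX. The OB had the lowest mean, from 2 reads, and its samples overlapped with the third HC sample.

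Nkx2-2 (chr2:147177546-147194243, minus strand) had 40.2, 33.9 and 64.6 in the OB and 25.2, 60.1 and 46.3 in the BS. It had 22.6 and 23.0 in the CX and 16.9, 18.3 and 13.9 in the HC. The samples of OB and BS overlapped widely, and the HC samples were below all samples of the other regions.

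Pax3 (chr1:78101267-78197134, minus strand), the dorsal member, had values of 43.1, 30.1 and 27.4 in the BS, from 69 reads, and no read in the 8 other samples. Against a floor of 3 reads per library, the BS mean of 33.5 ± 8.42 (SD, n = 3) was at least 12.6-fold higher. En2 (chr5:28165694-28172166, plus strand), expressed in the midbrain and the developing cerebellum, had 14.7, 50.1 and 23.2 in the BS, 8.75, 7.31 and 0.367 in the HC, 1.26 in 1 CX sample and 0 in the OB. The BS samples lay above all others, with the HC next. En1 (chr1:120602418-120607992, plus strand), its relative, had 0, 4.01 and 4.21 in the BS, which are 4 reads in all, and 0 elsewhere.

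Levels can be compared between genes only after division by exon length. Per kb of exon, Nkx6-2 had the highest mean in the BS at 26.6 ± 16.6 (SD, n = 3), followed by Irx5 at 20.7 ± 3.99, Nkx2-2 at 15.3 ± 6.11 and Irx2 at 11.4 ± 0.683. Irx1 (9.82), Irx3 (9.05), En2 (8.28), Nkx6-1 (5.63) and Pax3 (5.42) came next, and En1 was last at 1.04. Of the 9 neighbours in that order, 8 overlapped in their samples, and the exception was Pax3 above En1. In the OB, Nkx2-2 led at 16.1 ± 5.64 per kb, and Nkx6-2 came next at 0.328. Nkx2-2 and Nkx6-2 were also first and second in the HC (5.69 and 3.20 per kb) and in the CX (7.93 and 6.36 per kb), where their samples overlapped.

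**Figure D2:**
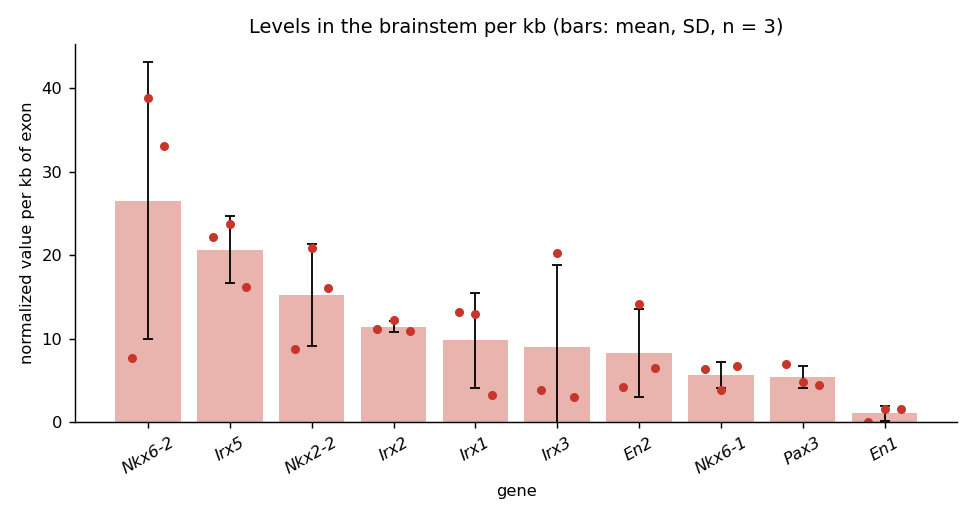
Normalized value per kb of exon (y axis) of each gene (x axis, ordered by mean) in the 3 BS samples, shown as points, with bars at the mean and whiskers of 1 SD. The order runs from Nkx6-2 at 26.6 to En1 at 1.04, with wide overlap between neighbouring genes.

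Which members set the brainstem apart was asked with limma on log2(value + 1), comparing the BS samples with the 8 others pooled, two-sided and adjusted over 13875 genes. Members called higher at an adjusted p under 0.05 were Irx1, Irx2, Irx3, Irx5, Nkx6-1, Pax3 and En2, which is 7 of the 9 tested, and none was lower. Over all genes tested, 2.0% were called higher and 5.42% in either direction. Those 7 passed the filter on low counts only through their BS libraries, so they had to differ and their number is a description. The median log2 fold change of the 9 was 3.85, or 3.84 with Pax3 at its bound, against 0.02 for all genes tested.

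Fold changes on this scale understate the change of low genes. Irx5 had the largest log2 fold change, 5.43 (standard error 0.88, adjusted p = 0.00232, limma). Irx2 followed at 5.21 (standard error 0.63, adjusted p = 0.00029) and Pax3 at 5.08 (standard error 0.64, adjusted p = 0.000412). Irx1 rose by 4.23, Irx3 by 3.85, Nkx6-1 by 3.84 and En2 by 3.75, with adjusted p-values from 0.00405 to 0.0280 (limma). In reads per unit of size factor, Irx2 was 408 times as high in the BS as elsewhere (95% exact counting interval 71.0 to 16340, from 72 reads against 1), and Irx1 153 times (40.4 to 1296, from 54 against 2). As ratios of sample means, which weight each sample equally, these were 819 and 87.9, and the single read of Irx2 outside the BS was in 1 HC sample, without which no ratio could be formed.

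Nkx6-2 had a log2 fold change of 3.37 that did not pass (standard error 0.95, adjusted p = 0.0549, limma). Nkx2-2 had 0.65, with a 95% interval from -0.36 to 1.67 (adjusted p = 0.467, limma). For En1, which failed the filter, the BS mean was 2.74 higher than elsewhere (exact permutation test over 165 splits, two-sided p = 0.0545), and no fold is given because no BS sample held more than 3 reads. Every BS sample exceeded every other sample in 7 members, the same that were called, and in 3.70% of all genes tested.

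**Figure D3:**
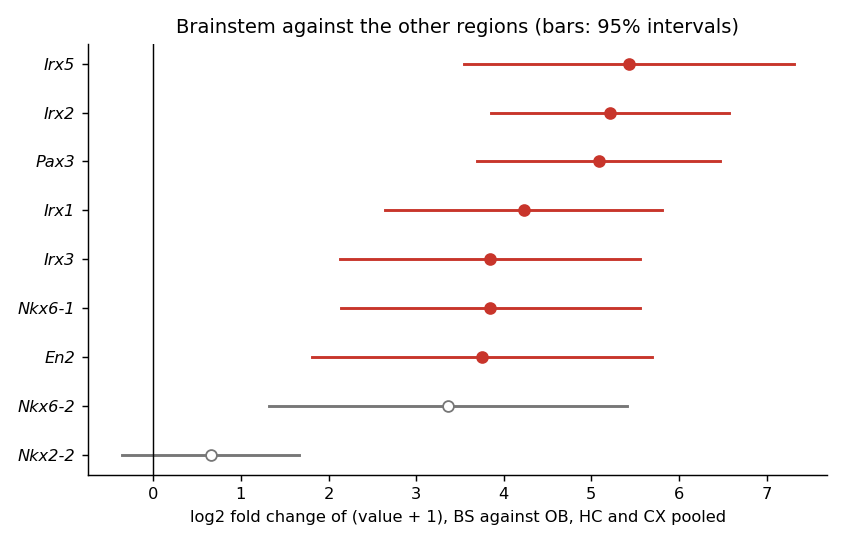
Log2 fold change of value + 1 (x axis) for the 9 genes tested (y axis), BS against the pooled OB, HC and CX samples, with 95% intervals from limma. Filled red points mark an adjusted p under 0.05, and Nkx6-2 at 3.37 and Nkx2-2 at 0.65 are the open grey ones.

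These calls rested unequally on the libraries. Without the first BS sample, 3 of 7 testable members were called (Irx2, Irx5 and Pax3, against 2.29% of all genes), and without the second, 4 of 7 (Irx2, Irx5, Nkx6-1 and Pax3, against 6.05%). With DESeq2 on the recovered reads, 5 members were called (Irx1, Irx2, Irx3, Nkx6-2 and Pax3, against 8.33% of all genes in either direction), whereas Irx5, with a log2 fold change of 5.09, had an adjusted p of 0.180. With edgeR 5 were called, without Nkx6-1 and En2 (4.16% of all genes). By the study's thresholds, an unadjusted p under 0.01, a fold over 1.5 and a value over 5 in 2 replicates, the 7 and Nkx6-2 were higher, against 3.98% of all genes tested.

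The other regions gave no such calls by limma. Set against the remaining samples in turn, 0 members passed in the OB (4.58% of all genes tested were called), 0 in the CX (0.0144% called) and 0 in the HC (0% called). At an unadjusted p under 0.05 the members were En2 and Nkx6-2 in the OB, Nkx2-2 in the HC and none in the CX. With edgeR these counts were also 0, and with DESeq2 the OB count was 3 (Irx3, Nkx6-2 and En2, against 8.94% of all genes) and the others 0. The study's thresholds passed Nkx6-2 in the OB, against 8.04% of all genes. Nkx6-2 had the largest difference in the OB, where it was lower by a log2 fold change of -3.19 (standard error 0.99, adjusted p = 0.0917, limma).

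An F test over the 4 region means (limma) called 8 of the 9 members, against 16.5% of all genes tested. Nkx2-2 was the one that did not pass (adjusted p = 0.123, limma). As above, all of the 8 but Nkx6-2 passed the filter on low counts only through their BS libraries. This count, and those of the pairs with the BS below, are therefore descriptions. Between pairs of regions, 8 members were higher in the BS than in the OB (7.55% of all genes tested were called higher), 7 higher than in the CX (5.44%) and 4 higher than in the HC (1.95%). The 4 in the last comparison were Irx1, Irx2, Irx5 and Pax3, and their number lay between 3 and 7 under the alternatives. With edgeR, only Irx2 and Pax3 passed between BS and CX, and without the first BS sample Irx2, Pax3 and En2. That count was 3 without the first CX sample and 2 without the second, where the lone CX sample is assumed to vary like the other groups. Pairs among the OB, HC and CX gave 0 calls in members by limma, where 7.11% of all genes were called between HC and OB, 4.91% between CX and OB and 1.23% between CX and HC. The members at an unadjusted p under 0.05 were En2 and Nkx2-2 between HC and OB and Nkx6-2 between CX and OB. Nkx2-2 differed by -1.40 on the log2 scale in the HC (adjusted p = 0.0978, limma), and Nkx6-2 was 3.05 higher in the CX (adjusted p = 0.117, limma). By DESeq2 both passed, as did En2 between HC and OB and Irx5 in the CX against the OB and the HC, where it rests on 1 sample. With edgeR the count was 0.

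**Figure D4:**
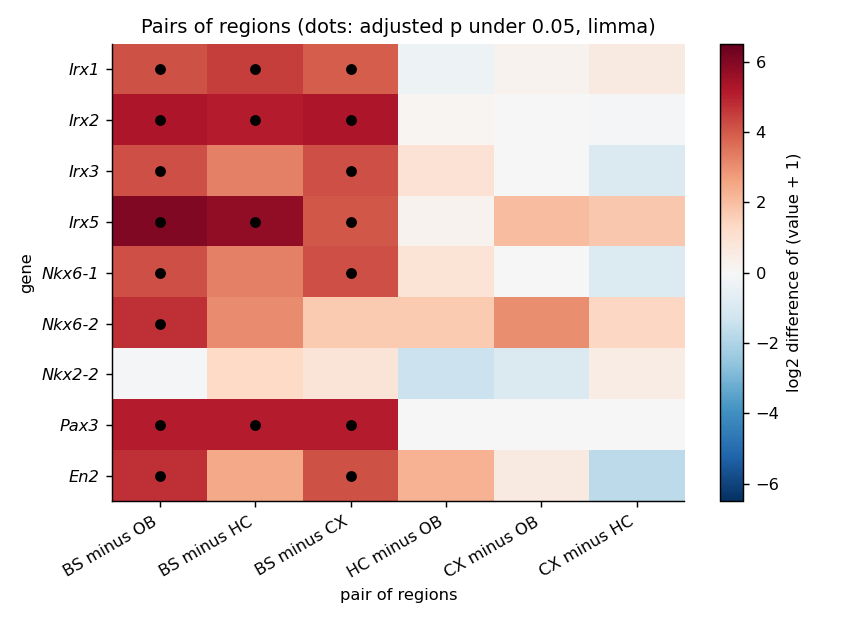
Log2 difference of value + 1 (colour scale) for the 9 genes tested (y axis) in the 6 pairs of regions (x axis), with black dots at an adjusted p under 0.05 from limma. All 19 dots lie in the 3 columns that hold the BS, and Nkx2-2 has none.

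Of the 5 members that did not pass between BS and HC, all but Nkx2-2 had higher mean values in the HC than in the OB. So did Irx2 and Irx5, which passed, from 1 HC read each. The HC mean of Nkx6-1 came from 1 sample. En2 differed by 2.48 between BS and HC on the log2 scale (adjusted p = 0.187, limma) and Nkx6-2 by 3.06 (adjusted p = 0.0752, limma). Nkx6-1 differed by 3.28 (adjusted p = 0.0720, limma) and Irx3 by 3.26 (adjusted p = 0.0743, limma).

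RNA of other cell types was present in the sorted samples, and some of it differed between regions in the same direction as these genes. Of 12 oligodendrocyte markers, 2 were higher in the BS, among them the myelin gene Mbp, and none was lower, and 9 had an unadjusted p under 0.05 (limma). The summed values of the 12 ran from 53418 to 91750 in BS samples, from 18924 to 40711 in HC samples, from 19696 to 20848 in CX samples and from 9846 to 16324 in OB samples. Of the 8 precursor markers 0 were called in the BS (limma, 1 at an unadjusted p under 0.05). They summed to between 601 and 934 there, between 615 and 763 in the OB, between 408 and 515 in the HC and between 426 and 503 in the CX. Nkx6-2 had its lowest mean in the OB, where the first sum was lowest too, and Nkx2-2 was highest in the OB and BS, as the second was. Within the BS, the precursor sum (601, 934 and 716) had the same order of samples as Nkx2-2 and Nkx6-2. Olig2, also counted among the ventral genes below, was the largest part of that sum, at 206, 543 and 286. Pdgfra, Gpr17 and Neu4 had the same order as Olig2, and Cspg4, Sox10, C1ql1 and Bmp4 did not. That order was not particular to precursor markers. The sum of the 10 astrocyte markers (97652, 286916 and 166734) and En2 (14.7, 50.1 and 23.2) had it too. The oligodendrocyte sum was highest in the third sample, whereas Nkx2-2 and Nkx6-2 were highest in the second. The part of these cells in the values of Nkx6-2 and Nkx2-2 was not tested.

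**Figure D5:**
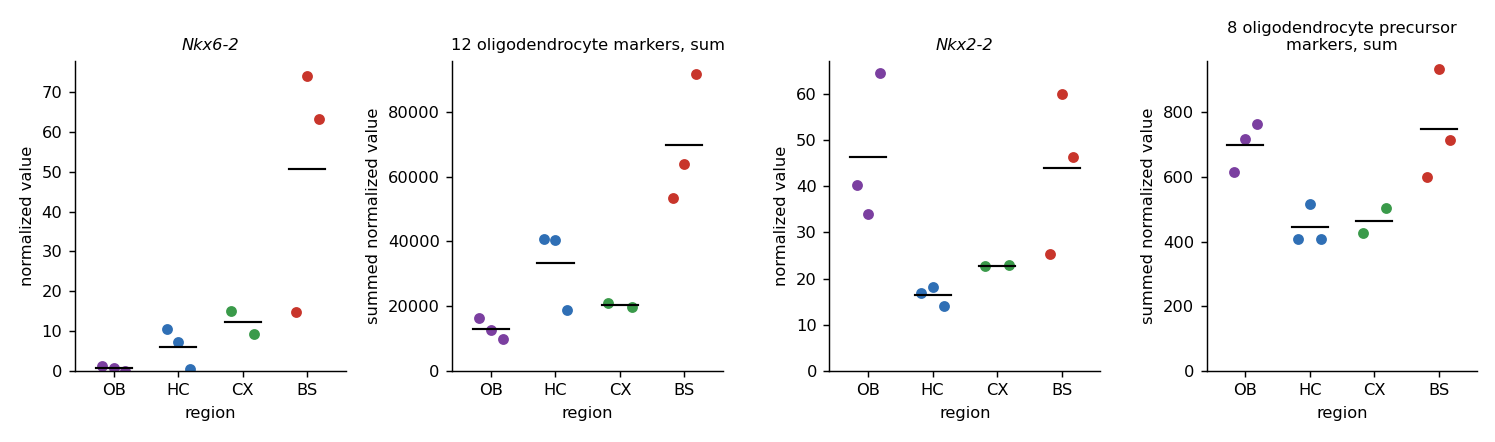
Normalized value of Nkx6-2 and Nkx2-2 and summed normalized value of 12 oligodendrocyte and 8 oligodendrocyte precursor markers (y axes) by region (x axis), with 1 point per sample and a line at the region mean. The oligodendrocyte sum reaches 91750 in a BS sample and at most 16324 in the OB, and the precursor sum is 601 or more in every OB and BS sample and 515 or less in every HC and CX sample.

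Markers of the cerebellum and of neurons were also read. Gabra6, a granule cell receptor gene, had values of 10.5, 18 and 61.0 in the BS and 0 elsewhere, and Cbln3 had 4.21, 16.0 and 194 in the BS and at most 1.83 elsewhere. These were the 2 of 5 tested cerebellar markers called higher, and the 8 markers summed to between 63.1 and 417 in the BS, between 20.6 and 122 in the OB, between 56.2 and 90.4 in the HC and between 132 and 167 in the CX. The third BS sample, highest for both genes, was between the others for En2, Nkx6-2 and Nkx2-2, and was the lowest for the 4 Iroquois genes and Pax3. For each of these 4 genes and Pax3, its 95% counting interval overlapped that of the next lowest BS sample. Irx2, for example, had 35.8 from 17 reads against 36.8 from 35 reads in the first sample. Pax3 had 27.4 from 13 reads against 30.1 from 15 reads in the second. The third sample was also the highest for Nkx6-1 and En1, likewise within counting error. En1 had 2 reads in both the second and the third sample. Nkx6-1 had 21.0 from 10 reads in the third sample against 20.0 from 19 reads in the first.

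Of 12 neuron markers, Slc6a5, a glycine transporter gene, Nefl, Stmn2 and Snap25 were higher in the BS and Slc17a7 and Syt1 lower, with sums between 2971 and 4012 in the BS, 2201 and 3798 in the OB, 1399 and 2620 in the HC and 2421 and 3100 in the CX. Of 22 homeobox genes of hindbrain and spinal neurons, 12 had no read in the BS, among them Isl1, Lbx1 and Phox2a, and the summed values in the BS were 2.0 to 21.0. Choroid plexus markers summed to between 50779 and 238405 in BS samples and between 70267 and 142598 in HC samples, against at most 4878 in the CX and 329 in the OB, and 0 of 8 were called in the BS (limma, 5 at an unadjusted p under 0.05). Of the ependymal markers Foxj1 was higher in the BS (1 of 5 tested), and of 10 endothelial and meningeal markers Col1a2. The part of any of these cells in the results was not tested.

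Of 23 further Irx, Nkx, Pax and Gbx genes, 15 had a read and 2 were tested. Irx4 and Irx6 had 1 read each, and Pax7, the closest relative of Pax3, had 1. Nkx2-9, a relative of Nkx2-2, had values of 13.7, 4.01 and 6.31 in the BS, from 18 reads, and at most 2.51 elsewhere, from 4. Pax8 had 4.21, 18 and 0 in the BS, from 13 reads, and 1 read elsewhere. Both genes failed the filter and were chosen after their values were seen. Pax6, a forebrain and progenitor factor, fell by 1.61 on the log2 scale in the BS (standard error 0.27, adjusted p = 0.00337, limma), and its BS samples were at 62.0, 112 and 63.1 against 151 to 375 elsewhere.

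Of 13 tested ventral progenitor and hedgehog genes, 0 were higher in the BS and 1 was lower by limma (6 at an unadjusted p under 0.05 in either direction), with a list median of 0.63 against 0.02 over all genes. The hedgehog receptor genes Ptch1 (0.66, adjusted p = 0.113) and Smo (0.28, adjusted p = 0.608) did not pass (limma). Shh itself had 7 reads outside the BS and none in it. Olig2, a ventral factor kept in the oligodendrocyte lineage, had 206, 543 and 286 in the BS and 79.3 to 345 elsewhere (0.93, adjusted p = 0.160, limma).

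Midbrain-hindbrain boundary genes moved both ways. Mab21l2, which acts in midbrain and eye development, had 21.0, 12 and 27.4 in the BS and at most 2.37 elsewhere (log2 fold change 3.89, adjusted p = 0.00624, limma). Otx1, a forebrain and midbrain factor, fell by 3.0 (adjusted p = 0.000685, limma). These were the 2 calls among 6 tested in the BS, where all 6 had an unadjusted p under 0.05 (limma), and the list median was 2.59. The F test over the 4 regions called all 6. In the OB, 3 of the 6 were lower (Lmx1a, Otx2 and Fgf18). Otx2 is also among the choroid plexus markers counted above. It had 2445, 609 and 1223 in the BS, the same order of samples as the plexus marker Ttr (221911, 46376 and 108256). The part of plexus RNA in the values of these genes was not tested. Of 7 tested dorsal progenitor genes 0 were called in the BS by limma (1 at an unadjusted p under 0.05), with a list median of 0.95.

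Cofactors of homeodomain proteins were broadly present. Of 11 tested TALE genes, which encode partners of the Hox and other homeodomain proteins, 1 rose and 1 fell in the BS. Meis1 rose by 1.93 (standard error 0.49, adjusted p = 0.0348, limma). Meis1 had 102, 152 and 128 in the BS and 13.7 to 69.0 elsewhere. Of 6 Groucho corepressors, through which Nkx and engrailed factors repress genes, Tle4 fell by 0.70 (adjusted p = 0.0264, limma) and the other 5 did not pass.

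The genomic neighbours of the members, the nearest gene on each side that had an entry in these data, were read from the annotation. Of 18 such genes 11 were tested. Crnde, a noncoding gene 1.5 kb from Irx5 and on its lower side, had values of 17.9, 40.1 and 10.5 in the BS, 18.8 in the CX sample that held Irx5 reads, 0 in the other CX sample and at most 1.25 elsewhere. Its log2 fold change in the BS was 3.69 (standard error 0.97, adjusted p = 0.0418, limma). Gm20554, 0.256 kb from Irx2, had 9 reads in a pair of BS samples and 0 outside the BS. Sgpp2, 113 kb from Pax3 on its higher side, rose by 2.21 (adjusted p = 0.0155, limma). Farther off, Mrps18c, 854 kb from Nkx6-1, fell by 1.96, and Celrr, 479 kb from En1, fell by 1.92. Fto, 130 kb from Irx3 and host of distant Irx3 enhancers, had a log2 difference of 0.23 that did not pass (adjusted p = 0.508, limma).

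Strand was not stated for the counting, so that reads of a member and of a gene on the other strand cannot be told apart where they overlap. Irx3 overlaps Irx3os and En2 overlaps Gm43610, neither of which was analysed here. Nkx6-2 overlaps Inpp5a, which lay between 73.4 and 154 in all samples with no call in the BS (0.20, adjusted p = 0.656, limma). Nkx2-2 overlaps the antisense genes Nkx2-2os and 6430503K07Rik. Nkx2-2os had 17.4, 32.4 and 35.0 in the OB, 15.8, 20.0 and 14.7 in the BS and at most 13.8 in the HC and CX, an order of regions like that of Nkx2-2.

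The genes most like each member over the 11 samples were found by Pearson's r of log2(value + 1), as a description, since samples of 1 region share their level. For Irx2 they were Hoxa2 (r = 0.998) and Hoxa5 (0.988), and for Pax3 Hoxa2 (0.997) and Hoxc4 (0.988). Irx1 was nearest to Hoxc4 (0.976) and the noncoding Haglr of a Hox cluster (0.964). All of these Hox genes were at 0 outside the BS, and Hoxa2, which sets hindbrain segment identity, had 39.9, 44.1 and 46.3 in the BS.

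The other members were, Crnde apart, likest to genes with reads in every region. Irx5 was likest to Crnde (0.967) and Ccdc141 (0.936), Irx3 to Hif1a (0.992) and Trpm3 (0.951), and Nkx6-1 to Cpeb2 (0.948) and Ablim1 (0.947). Nkx6-2 was close to Ypel2 (0.951), En2 to Oxsr1 and Samd4 (both 0.949), and Nkx2-2 to Spon1 and Adora1 (both 0.919). Hif1a, a hypoxia factor, had 1726, 2789 and 1705 in the BS, with the second sample highest as for Irx3, and 602 to 980 elsewhere.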

How the data were processed

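Reads (NuGEN Trio libraries, ribosomal RNA depletion) were mapped by the authors to mm10 with STAR 2.5.0a, counted on UCSC transcripts and normalized with DESeq2 1.20.0. The deposited unit is a normalized signal, the read count divided by 1 size factor per sample. Dividing by a sample's smallest non-zero value gave whole numbers in 100% of cases (tolerance 0.01 read), from which reads were recovered. Genes were filtered with edgeR's filterByExpr. Regions were compared with limma 3.58.1 (R 4.3.3) on log2(value + 1) with a trend and Benjamini-Hochberg adjustment. For En1 an exact permutation test was used. Alternatives were edgeR 4.0.16, DESeq2 1.42.0, pseudocounts of 0.25 and 5, no filter, no trend, region means, a replicate block, the study's thresholds and leaving out each sample. The fits were tested on simulated data. All members are named. List genes were named by the size of called changes (up to 4 per list), neighbours by position and similar genes by r. Members and lists were chosen with earlier results of these data known. Python 3.11.15 with pandas 2.3.3, scipy 1.17.1, matplotlib 3.10.9 and Biopython 1.88 was used. Coordinates and sequences are from GENCODE (GRCm38). Some genes and sequences that these rules select are not reported here.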

Additional observations from a re-analysis of the deposited data

How the results depend on the processing

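The number of members called in the BS was 7 and lay between 5 and 8 under other tests and filters, and between 3 and 8 when single samples were left out (3 without the first BS sample, 4 without the second and 5 without the third). The count in the OB was 0 and became 3 with DESeq2, 2 with a mean for each region and 1 with the study's thresholds, and it ranged from 0 to 1 over left-out samples (1 without the third HC sample). HC and CX counts stayed at 0 under all alternatives run. Among the 4 regions 8 members were called, 7 with edgeR, 9 with DESeq2 and 5 to 8 over left-out samples. Calls between pairs of regions numbered 19, with 13 to 25 under the alternatives. No log2 fold change in the BS changed direction. Those of Irx1, Irx2, Irx3 and Pax3 kept an adjusted p under 0.05 wherever they were tested (limma, edgeR or DESeq2), whereas Nkx6-1 reached 0.0899, En2 0.106 and Irx5 0.180. Nkx6-2 passed under 6 of 21 alternatives, DESeq2 and a pseudocount of 5 among them. The difference in En1 ranged from 2.0 to 4.11 over left-out samples, with an exact permutation p of 0.0222 without the first BS sample and 0.2 without the second or the third. The cause of these differences was not tested, other than that Irx1 and Irx3 failed the filter in some subsets.

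Samples with the same replicate number in different regions showed no clear pairing. Of 15 same-numbered pairs, 3 deviated together with r above 0.1, against 5 of 30 other-numbered pairs (median r 0.023 and -0.0025). Correlations this weak cannot tell whether samples of the same number came from the same animals. With the replicate block, 7 members were called in the BS, 0 in the OB, HC and CX, 8 among the 4 regions and 19 between pairs. Depth limits En1, with 4 reads in all, most.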

Other observations

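Because Hox genes led the likeness of 3 members, the Hox clusters were counted as a whole, a choice made after those values were seen. Of 39 Hox genes listed, 16 had a read, and 38 had no read outside the BS. They held 388 reads in the BS samples and 1 read in the 8 others. All 6 that passed the filter were called higher in the BS (limma, adjusted p under 0.05, against 2.0% of all genes tested), with summed values of 152 to 236 in the BS and at most 0.789 elsewhere. The filter passed them through the BS, so that this is a description.

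Of the 3 genes known from positional domains of spinal cord astrocytes, Pax6 is described above. Reln had 158, 1089.8 and 629 in the BS and 41.5 to 865 elsewhere, and Slit1 had 0, 22.0 and 2.10 in the BS and 4.85 to 80.0 elsewhere, and neither passed in the BS. Pbx3, of the TALE genes, was higher in the OB by 2.44 (adjusted p = 0.00613, limma), at 336 to 388 against 29.4 to 168 elsewhere.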
